A study of Mus musculus with 6 samples.

Results

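The 10 genes described here encode 4 ceramidases (Acer2, Acer3, Asah1 and Asah2) and 6 subunits or enzymes of ceramide synthesis (Sptlc1, Sptlc2, Cers2, Cers4, Cers5 and Degs1). The set was put together with the earlier ETX against PBS result for Acer2 in view, and where a gene had several transcript clusters, the one used was chosen by its mean signal over all 6 arrays. The genes were taken by name from 19938 genes measured on Affymetrix whole-transcript arrays in 6 mouse hearts, and all 10 were measured. The hearts came from C57BL/6J mice at postnatal day 14 that had received either ETX or its vehicle, phosphate-buffered saline (PBS), over 1 week. There were 3 PBS hearts (labelled replicates 3, 9 and 12) and 3 ETX hearts (labelled 6, 7 and 10), all called biological replicates, and each was hybridised to an array of its own. The labels do not spell out ETX and state no dose, route, litter or sex; all animals shared strain and age, and no allele or transgene is named. The comparison asks which of these transcripts differed between ETX and PBS hearts.

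Ceramide is the central lipid of sphingolipid metabolism, a sphingoid base with a fatty acid joined to it by an amide bond. It is built in the endoplasmic reticulum: serine palmitoyltransferase condenses serine with palmitoyl-CoA, a reductase follows, a ceramide synthase adds a fatty acid whose chain length depends on the enzyme, and a desaturase completes the molecule. Ceramidases cut ceramide back into sphingosine and a fatty acid, and sphingosine is the precursor of the signalling lipid sphingosine-1-phosphate. In heart muscle, palmitoyl-CoA is also a fuel for mitochondrial oxidation, and ceramide is known for accumulating when fatty acid supply exceeds use.

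Acer2, an alkaline ceramidase of the Golgi apparatus, was the member that rose in ETX hearts, and none of the other 9 passed the test in either direction. The values are log2 signals, so a difference of 1 is a doubling. Acer2 stood at 7.41, 7.34 and 7.53 in PBS replicates 3, 9 and 12 and at 8.58, 8.30 and 8.66 in ETX replicates 6, 7 and 10. The groups did not overlap, and the lowest ETX heart, replicate 7, lay 0.77 above the highest PBS heart, replicate 12. The group means were 7.43 ± 0.09 in PBS and 8.51 ± 0.19 in ETX (SD, n = 3 per group), a 2.12-fold rise with a 95% interval of 1.80 to 2.51. In the fit across all genes (limma, Benjamini-Hochberg adjustment), Acer2 had an adjusted p of 0.00570 and was the 14th largest rise among 14953 genes tested. Acer2 was already known from earlier results of these data when the 10 genes were put together, so this p describes the fit and is no independent support. In whole-heart RNA, a change in the number of cells of one type and a change in RNA per cell cannot be told apart.

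The call of Acer2 counts 1 of 10 members. The background was 3.56% of all genes tested: 1.14% were called higher in ETX and 2.43% lower, at a limma adjusted p under 0.05. The median difference of the 10 members was -0.05, against -0.01 over all genes tested. ETX and PBS hearts did not overlap for 3 of the 10 members, 1 higher and 2 lower in ETX, and for 27.7% of all genes tested, so a lack of overlap is common in these arrays and the share among the members lies near it.

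**Figure D1:**
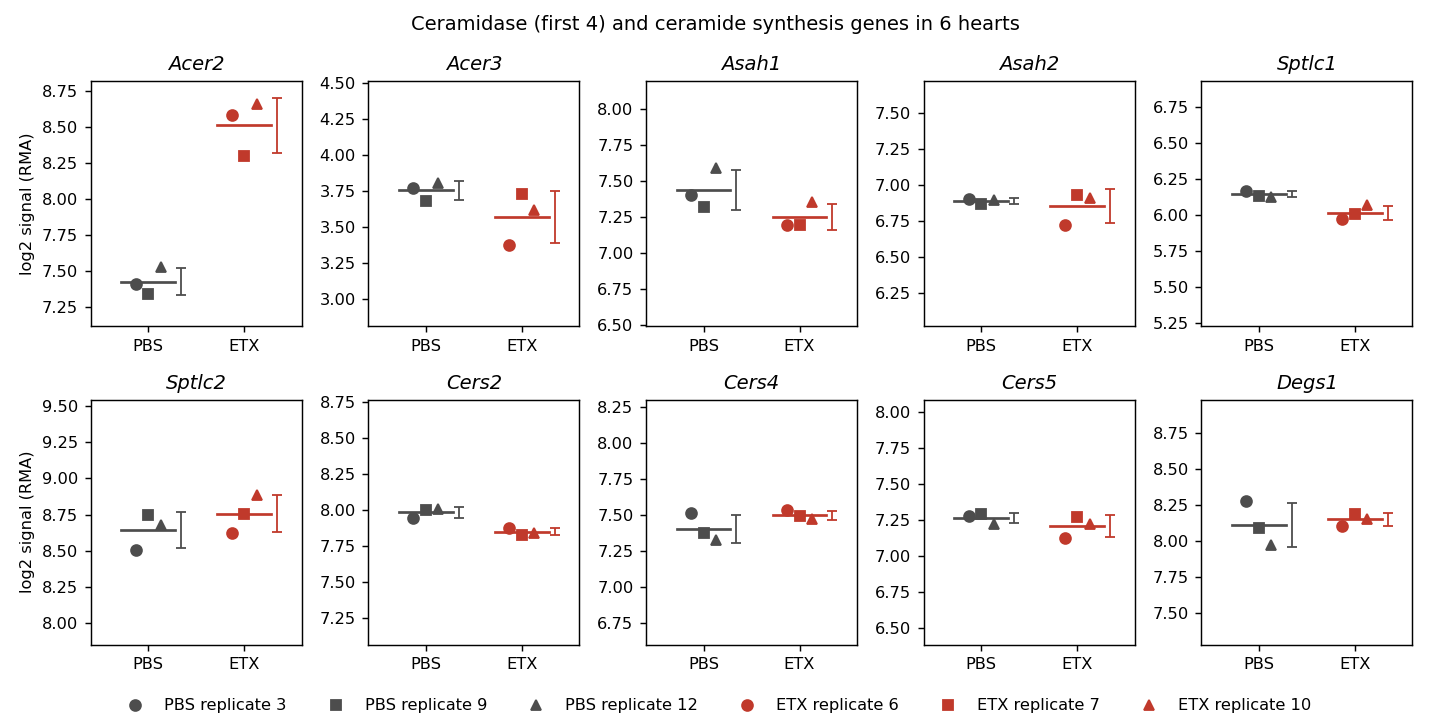
Log2 signal (RMA) of the 4 ceramidases (Acer2, Acer3, Asah1, Asah2) and 6 ceramide synthesis genes in each heart; points are hearts, horizontal lines are group means, bars beside them are ± SD (n = 3), and every panel spans the same log2 range. Acer2 lies between 8.30 and 8.66 in ETX and between 7.34 and 7.53 in PBS, whereas the groups of the other genes lie close together.

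A second, dim transcript cluster is annotated to Acer2 through a single cDNA. It read 3.30, 3.07 and 3.14 in PBS replicates 3, 9 and 12 and 3.41, 3.31 and 3.68 in ETX replicates 6, 7 and 10. The hearts did not overlap here either, but the difference was 0.30, and the mean over all arrays of 3.32 was below 3.45, the lower quartile over all genes, and a level that dim gives no reliable fold. The brighter cluster, with a mean of 7.97, was the one used. Averaging both lowered the Acer2 difference from 1.09 to 0.69, where it still passed (limma adjusted p = 0.0164).

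The other alkaline ceramidase measured among the members, Acer3, which acts in the endoplasmic reticulum and Golgi, was dim. It stood at 3.77, 3.68 and 3.81 in PBS replicates 3, 9 and 12 and at 3.38, 3.73 and 3.62 in ETX replicates 6, 7 and 10. ETX replicate 7 lay inside the PBS range, so the groups overlapped. The log2 difference was -0.18 (95% interval -0.40 to 0.04, limma adjusted p = 0.323), and without ETX replicate 6, the lowest heart, it was -0.08.

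Asah1 encodes the acid ceramidase of the lysosome. It was at 7.40, 7.32 and 7.59 in PBS replicates 3, 9 and 12 and at 7.20, 7.20 and 7.36 in ETX replicates 6, 7 and 10. ETX replicate 10 exceeded PBS replicate 9, and the difference of -0.19 did not pass (95% interval -0.39 to 0.02, limma adjusted p = 0.272). Without PBS replicate 12, its highest heart, the difference was -0.11, and without PBS replicates 3 and 9, which hold lung transcripts, it was -0.34 (limma adjusted p = 0.204). Within each group, Acer2 and Asah1 were both highest in PBS replicate 12 and in ETX replicate 10. S1pr1 and Aldh3a2, described below, were highest in the same hearts. Over all 6 hearts the correlation of Acer2 with Asah1 was -0.57, and no link between them is read from this order.

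Asah2 encodes the neutral ceramidase of the plasma membrane. Its PBS hearts lay between 6.87 and 6.91, with ETX replicate 6 below them at 6.72 and ETX replicates 7 and 10 above them at 6.93 and 6.91. The difference was -0.04 (95% interval -0.21 to 0.14, limma adjusted p = 0.827). Without ETX replicate 6 it was 0.03, so no direction can be given for Asah2.

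Among the synthesis genes, none of 6 passed in limma, and none had an unadjusted p under 0.05. Sptlc1 and Sptlc2 encode the paired subunits of serine palmitoyltransferase, the enzyme of the committed step. Sptlc1 was at 6.17, 6.14 and 6.13 in PBS replicates 3, 9 and 12 and at 5.97, 6.01 and 6.07 in ETX replicates 6, 7 and 10. The ETX hearts were below every PBS heart, by a mean of -0.13 (95% interval -0.27 to 0.02, limma adjusted p = 0.278). Sptlc2 had the opposite sign, with 8.50, 8.75 and 8.68 in PBS replicates 3, 9 and 12 and 8.62, 8.76 and 8.88 in ETX replicates 6, 7 and 10. These ranges overlapped (difference 0.11, 95% interval -0.10 to 0.33, limma adjusted p = 0.530), and the difference was 0.04 without PBS replicate 3, 0.05 without ETX replicate 10 and 0.18 without ETX replicate 6. Whether the subunits differed from each other in their change was not tested.

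The ceramide synthases differ in the acyl chains they attach: Cers2 prefers very long chains, Cers4 long to very long chains, and Cers5 mainly palmitate. Cers2 was at 7.940, 8.002 and 8.004 in PBS replicates 3, 9 and 12 and at 7.877, 7.828 and 7.842 in ETX replicates 6, 7 and 10. Its ETX hearts were below every PBS heart, with a difference of -0.13 (95% interval -0.27 to 0.01, limma adjusted p = 0.254), the smallest adjusted p among the other 9 members. Cers4 was at 7.51, 7.38 and 7.33 in PBS and at 7.53, 7.50 and 7.47 in ETX, in the same order of replicates. PBS replicate 3 lay inside the ETX range, and the difference was 0.09 (95% interval -0.07 to 0.26, limma adjusted p = 0.489), with 0.15 without PBS replicate 3 and 0.05 without PBS replicate 12. Cers5 was at 7.28, 7.30 and 7.22 in PBS and 7.13, 7.27 and 7.22 in ETX, with a difference of -0.06 (95% interval -0.21 to 0.10, limma adjusted p = 0.667). Here ETX replicate 6 was the heart below the others, and the difference was -0.02 without it and -0.09 without ETX replicate 7.

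Degs1 encodes the desaturase of the last step, which turns dihydroceramide into ceramide. The PBS hearts were spread out, at 8.28, 8.09 and 7.97 in replicates 3, 9 and 12, and the ETX hearts lay inside that range at 8.10, 8.19 and 8.15 in replicates 6, 7 and 10. The difference was 0.04 (95% interval -0.17 to 0.24, limma adjusted p = 0.855), and it was -0.04 without PBS replicate 12.

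The intervals bound the difference in array signal for the 9 members that did not pass. Across them the 95% intervals ran from -0.40 to 0.33, and the limit furthest from 0 corresponds to a 1.32-fold difference in signal. A signal difference of the size seen for Acer2 lies outside every one of them. The limit of -0.40 is that of Acer3, which was dim, with a mean of 3.66 over all arrays. RMA compresses differences of dim transcripts, so this interval does not bound the change of the Acer3 transcript itself.

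**Figure D2:**
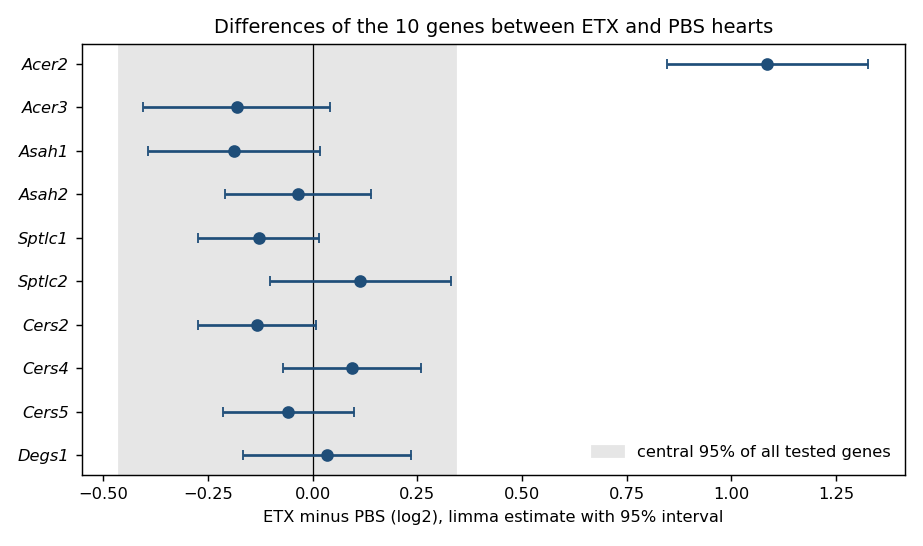
Difference between ETX and PBS hearts (log2, limma estimate with 95% interval, n = 3 per group) for the 10 genes; the grey band holds the central 95% of all genes tested, from -0.46 to 0.34. Acer2 lies outside the band at 1.09, and the other 9 lie inside it with intervals that include 0.

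Some hearts stand apart, and their values are given beside Acer2. All 10 cardiomyocyte markers were measured above the dim quartile, with mean levels of 11.72 to 11.75 in PBS and 11.67 to 11.79 in ETX. The mean of 9 lung markers was 5.81 in PBS replicate 3 and 7.07 in PBS replicate 9, 3.42 in PBS replicate 12 and 3.45 to 3.54 in ETX, and 2 of the 9 lay under the dim quartile. In PBS replicate 12, which is near the ETX hearts on that score, Acer2 was at 7.53, below all ETX hearts. That is a single heart, and the part of lung transcripts in the Acer2 difference was not tested. The Acer2 difference was 0.99 without PBS replicates 3 and 9, where the single PBS heart is assumed to vary like the others and the call was lost (limma adjusted p = 0.0766), and 0.99 with the lung score in the fit (0.0435). The mean of 8 atrial markers was high in PBS replicate 3 (8.05) and in ETX replicates 6 (7.53) and 7 (7.60), and lay between 5.79 and 6.24 in the other 3 hearts. Not every marker followed this mean. Bmp10 was at 7.71 in PBS replicate 3 and at 2.79 and 2.94 in ETX replicates 6 and 7. Nppa was at 11.9 in ETX replicate 10, against 9.3 and 9.0 in PBS replicates 9 and 12. Among the 3 hearts with the lower atrial mean, Acer2 was at 8.66 in ETX replicate 10 and at 7.34 and 7.53 in PBS replicates 9 and 12, a difference of 1.23. The fit on these hearts has a single ETX heart, assumed to vary like the PBS hearts, and Acer2 did not pass there. With the atrial score in the fit over all 6 hearts, the Acer2 difference was 1.11 (limma adjusted p = 0.0195). The part of atrial transcripts in the Acer2 difference was not tested.

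Markers of other cell types differed between the groups to varying extents. The mean of 10 macrophage markers was 6.996 to 7.22 in PBS and 6.52 to 6.63 in ETX, with all 10 below 0 and 5 called lower in limma, and that of 10 endothelial markers was 8.83 to 8.87 and 8.54 to 8.69, with 9 below 0 and 3 called lower. The 2 measured erythroid markers, Alas2 and Slc4a1, averaged 7.06 to 7.30 in PBS and 7.59 to 7.94 in ETX and were both called higher, and the mean of 8 skeletal muscle markers was 5.53 to 5.66 in PBS and 5.84 to 5.91 in ETX. Of the skeletal markers 6 were bright enough to test, and Acta1, which differed by 1.80, was the one called. Their median difference was 0.06, and 5 of the 6 lay above 0. Ckm differed by 0.30 (limma adjusted p = 0.0588), Tnnt3 by 0.08, Myog by 0.05 and Mylpf by 0.02, with Tnni2 at -0.22. Myh4 and Myh1 were too dim to test, so the mean is not read as an amount of skeletal muscle cells. Of 8 fibroblast markers, with means of 9.51 to 9.67 in PBS and 9.41 to 9.61 in ETX, 6 lay below 0 and 1, Pdgfra, was called lower (difference -0.50, limma adjusted p = 0.0302). The part of these in the Acer2 difference was not tested. Xist, the transcript of the inactive X chromosome, was at 8.34 to 8.41 in PBS replicate 3 and ETX replicates 6 and 10 and at 2.61 to 2.87 in the other 3 hearts. The Acer2 difference was 1.21 among the hearts with high Xist (1 PBS, 2 ETX) and 0.86 among those with low Xist (2 PBS, 1 ETX), and 1.04 with Xist in the fit (limma adjusted p = 0.0266). Acer2 kept the call in all 6 fits that left out 1 heart, with adjusted p from 0.00910 to 0.0278.

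**Figure D3:**
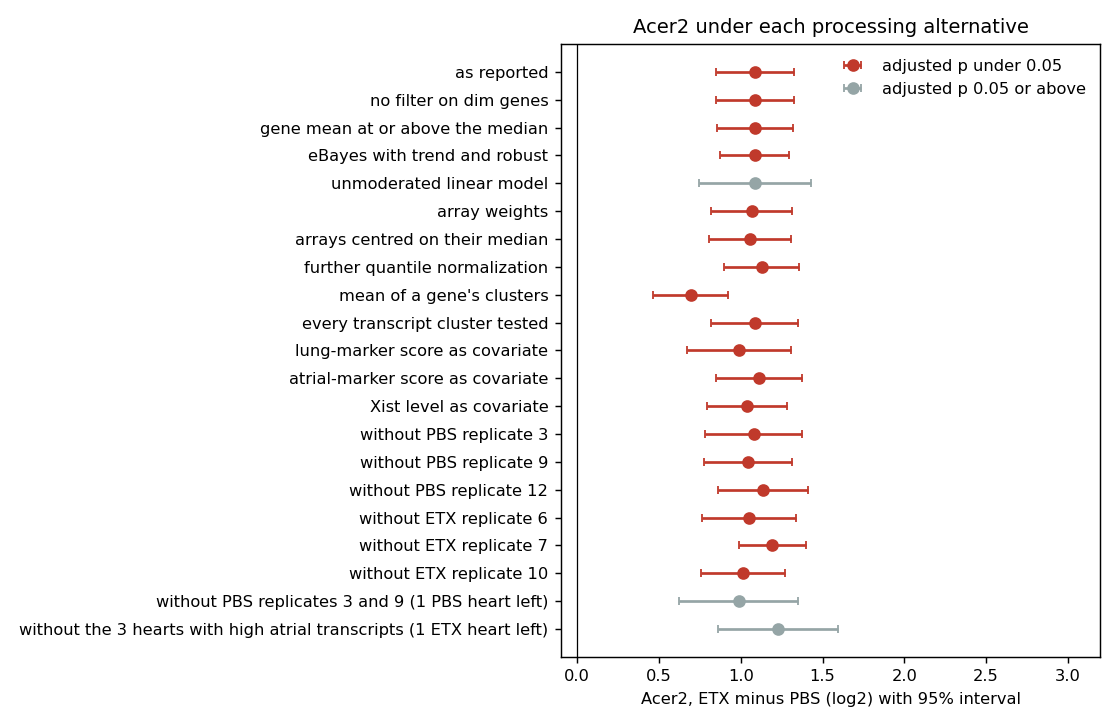
Acer2 difference between ETX and PBS (log2, with 95% interval) as reported and under 20 alternatives; red marks an adjusted p under 0.05 and grey one at or above it. The estimates run from 0.69, when both Acer2 clusters are averaged, to 1.23, without the 3 hearts with high atrial transcripts, and 3 settings are grey.

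The genes whose profile over the 6 hearts was most like that of Acer2 were sought among the tested genes left after a filter on symbols. The filter skipped predicted and clone-named genes, olfactory and vomeronasal receptors, immunoglobulin and T cell receptor segments, small RNA genes and symbols starting with Rn. Likeness was the root mean square difference between log2 profiles, each centred on its mean. The nearest 5 were Dio2, which activates thyroid hormone (0.17), Tmem267 (0.18), the tropomyosin gene Tpm2 (0.18), Ctnnal1, an alpha-catenin-like gene (0.20), and the cytokine Mif (0.21). Their ETX minus PBS differences ran from 0.72 for Ctnnal1 to 1.11 for Mif. With 6 hearts in 2 groups the measure mostly finds rises of a similar size. Acer2 was lowest among ETX hearts in replicate 7, as was Ctnnal1 (7.19, against 7.59 and 7.64), while Dio2 lay between 5.80 and 5.84 in all of them.

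The remainder of the pathway was read from a list of 60 sphingolipid genes, of which 57 were measured on a cluster of their own and 51 were bright enough to be tested. Smpdl3a fell, 0 rose, and the other 50 did not pass in limma. This is 1 of 51, beside 3.56% of all genes tested. An unadjusted p under 0.05 was found for 16 of the 51 and for 21.9% of all genes tested, and ETX and PBS hearts did not overlap for 10 genes higher and 5 lower in ETX, where the shares over all genes tested were 11.6% and 16.1%. The median difference of the list was 0.02.

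Smpdl3a encodes a secreted phosphodiesterase related to acid sphingomyelinase. It was at 8.56, 8.52 and 8.45 in PBS replicates 3, 9 and 12 and at 8.14, 8.17 and 8.24 in ETX replicates 6, 7 and 10, a 1.26-fold fall (limma adjusted p = 0.0394). The groups did not overlap. The call was lost in each of the 6 fits without 1 heart, where its adjusted p was between 0.0675 and 0.140, and with the lung score in the fit (0.187). Acid sphingomyelinase itself, Smpd1, which releases ceramide from sphingomyelin in lysosomes, was higher in every ETX heart (9.11 to 9.21) than in any PBS heart (8.84 to 8.93) without passing (difference 0.28, limma adjusted p = 0.0588). The neutral sphingomyelinase gene Smpd4 showed 5.93 to 6.08 in ETX and 5.62 to 5.81 in PBS (difference 0.29, limma adjusted p = 0.0852). Of 10 tested genes of sphingomyelin synthesis and breakdown, 6 lay above 0 and 4 below.

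Of 7 other tested genes of de novo synthesis, 0 passed in limma and 0 had an unadjusted p under 0.05; 5 lay above 0. Ormdl2, a regulator of serine palmitoyltransferase, differed by 0.12 (5.10 to 5.17 in PBS, 5.20 to 5.29 in ETX, limma adjusted p = 0.300) and the ceramide synthase Cers6 by 0.12 (0.445). Cers1 shares its cluster with Gdf1 and is not reported. Sptlc3, Sptssb and Cers3 were too dim to test.

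Among 4 tested genes with a known or related ceramidase function, 0 passed in limma. An unadjusted p under 0.05 was found for 1 of them, beside 21.9% of all genes tested. That gene was Psap, which encodes the saposins, activators of lysosomal sphingolipid breakdown. It stood at 10.28, 10.22 and 10.12 in PBS replicates 3, 9 and 12 and at 10.01, 9.88 and 9.91 in ETX replicates 6, 7 and 10 (difference -0.27, limma adjusted p = 0.0857). The adiponectin receptor gene Adipor2, whose product has reported ceramidase activity, lay between 8.18 and 8.26 in PBS and 8.27 and 8.40 in ETX (difference 0.13, limma adjusted p = 0.326). The alkaline ceramidase Acer1 was too dim to test.

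The genes of ceramide phosphorylation and transfer lay above 0 for 4 of 4, with 0 called in limma and 2 at an unadjusted p under 0.05. Among all genes tested, 7234 of 14953 lay above 0 and 21.9% had an unadjusted limma p under 0.05. The sublists were not tested as sets. Cptp, which carries ceramide-1-phosphate, differed by 0.34 (limma adjusted p = 0.126), and the ceramide kinase Cerk by 0.19 (0.153). Of 10 tested glycosphingolipid genes 0 passed and 3 had an unadjusted p under 0.05. The galactosylceramidase Galc was at 4.75 to 4.99 in PBS and 5.06 to 5.24 in ETX (difference 0.31, limma adjusted p = 0.0875), while the GM2 activator gene Gm2a was at 7.85 to 8.12 in PBS and 7.54 to 7.78 in ETX (difference -0.30, limma adjusted p = 0.118). Psap, Gm2a and Smpdl3a had the same sign as the 10 macrophage markers. They were among 23 of the 51 tested list genes that lay below 0, while 28 lay above 0, Smpd1 and Galc among them. The part of macrophages in these differences was not tested.

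On the side of sphingosine-1-phosphate, 0 of 11 enzymes and transporters passed in limma and 4 had an unadjusted p under 0.05. The share of all genes tested with such a p was 21.9%. Aldh3a2, the dehydrogenase that oxidises the fatty aldehyde left when the lipid is cleaved, was at 7.15, 7.05 and 7.23 in PBS replicates 3, 9 and 12 and at 6.75, 6.81 and 6.90 in ETX replicates 6, 7 and 10 (difference -0.33, limma adjusted p = 0.0567). The exporter Spns2 was at 6.99 to 7.02 in PBS and 7.12 to 7.29 in ETX (difference 0.18, limma adjusted p = 0.192). The kinases that use the sphingosine made by ceramidases, Sphk1 and Sphk2, differed by -0.09 and -0.10 (limma adjusted p = 0.635 and 0.453). Of the 5 receptors 0 passed and 2 had an unadjusted p under 0.05: S1pr3 with a difference of -0.29 (limma adjusted p = 0.101) and S1pr1, abundant in endothelium, with 9.26, 9.44 and 9.73 in PBS replicates 3, 9 and 12 and 9.03, 8.95 and 9.35 in ETX replicates 6, 7 and 10 (difference -0.37, limma adjusted p = 0.181). Without PBS replicates 3 and 9 the difference of S1pr3 was -0.15 and that of S1pr1 -0.62, and neither passed; S1pr1 was at -0.24 without PBS replicate 12. The S1pr1 groups overlapped, and endothelial markers were lower in ETX as well; their part was not tested.

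**Figure D4:**
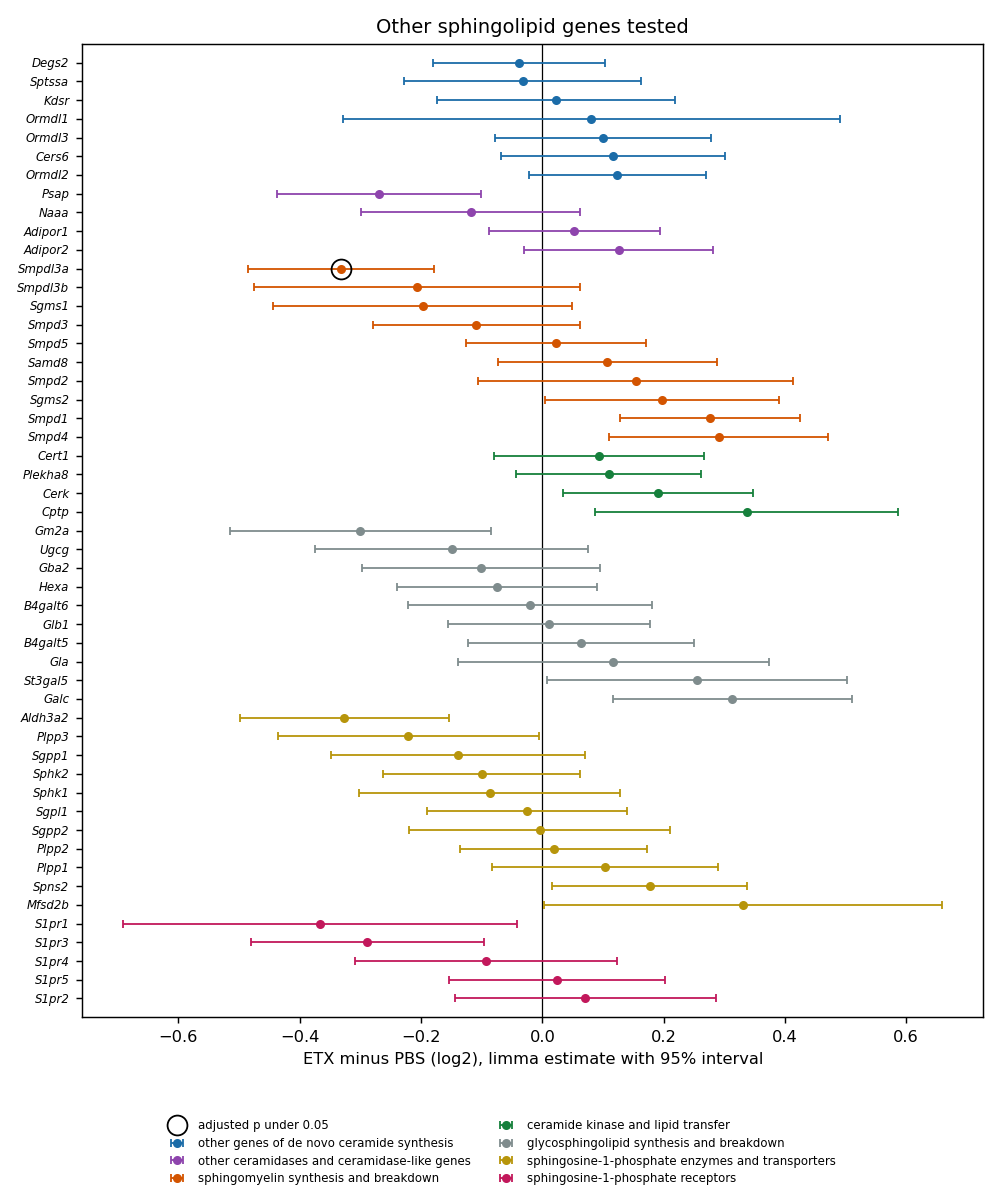
Difference between ETX and PBS hearts (log2, limma estimate with 95% interval, n = 3 per group) for the 51 other sphingolipid genes tested, coloured by step of the pathway; the circle marks an adjusted p under 0.05. Smpdl3a is the circled gene at -0.33, and the estimates of the 51 genes run from -0.37 to 0.34.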

How the data were processed

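Total RNA from 6 hearts was measured with 1 array each. The deposited log2 values were made by the authors with Affymetrix Expression Console and RMA, per the submitters' processing notes; RMA corrects background, normalizes quantiles and summarises probes by median polish, which compresses differences of dim transcripts. The sources used here do not give its version, annotation or filters, and the values carry no detection call. The number of arrays limits the precision. The limma p-values set the difference between groups against the spread of hearts within groups, which eBayes moderates with the spread of all tested genes.

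Of 35556 transcript clusters, 21789 had 1 gene symbol in the platform annotation and gave 19938 genes; the brightest cluster by the mean over 6 arrays stood for a gene. Genes with a mean under the lower quartile (3.45) were not tested, which left 14953. ETX was compared with PBS in R 4.3.3 with limma 3.58.1 (two-sided, lmFit followed by eBayes), p-values were adjusted over all tested genes by Benjamini-Hochberg, and the threshold was 0.05. On simulated data of this comparison over 14953 genes, 89% of 100 genes changed 1.5-fold and 100% of 100 genes changed 2-fold were recovered, with 16 others called. These rates do not hold for genes that vary widely between hearts of a group. In the measured data Nppa differed by 2.04 (limma adjusted p = 0.140) and Lyz2 by -1.29 (0.0667) without passing. No coordinates are printed, since no build is named for the array.

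The members and lists were chosen with earlier results of these data known. Named are all members, list genes past the threshold, up to 2 further genes per sublist with the smallest p, and the 5 genes nearest to Acer2; Sphk1, Sphk2 and 4 genes too dim to test (Sptlc3, Sptssb, Cers3 and Acer1) were added for their role. Alternatives were filters, eBayes options, array weights, scalings, cluster choice, covariates and hearts left out. Leaving out the 3 hearts with high atrial transcripts and the split by Xist were chosen after seeing the data. Leaving out PBS replicates 3 and 9 also rests on these data, since no label marks their lung transcripts. Figures used matplotlib 3.10.9.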

Additional observations from a re-analysis of the deposited data

How the results depend on the processing

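The 10 genes gave 199 values under the alternatives; 191 kept their direction and their side of the threshold. Acer2 lost the call in 3: the unmoderated linear model (adjusted p = 0.0936; 0 genes of any kind passed there, with 2738 at an unadjusted p under 0.05), without PBS replicates 3 and 9, and without the 3 high-atrial hearts (PBS replicate 3, ETX replicates 6 and 7). The count of members called was 0 in these. The other 9 members passed in none of the 20 alternatives that tested them (Acer3 was too dim for the filter at the median). Asah2 turned to 0.0068 after further quantile normalization of the RMA values and to 0.031 when the high-atrial hearts were left out. With 1 heart left out its lowest value was -0.073 (ETX replicate 7 left out) and its highest 0.031 (ETX replicate 6 left out). Degs1 turned to -0.0063 with the atrial score in the fit, and with 1 heart left out it ran from -0.035 (without PBS replicate 12) to 0.12 (without PBS replicate 3). After further quantile normalization Cers5 was at -0.0023, and with the lung score in the fit Asah1 was at -0.33. Without PBS replicates 3 and 9, Cers4 was at 0.18, Smpd4 at 0.18, Psap at -0.18 and Cerk at 0.12, and Sptlc1 was at -0.065 without the high-atrial hearts; none of these passed. The cause was not tested.

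The count of all genes called, 533, was 909 with the filter at the median, 957 with the trend and robust options, 294 with every transcript cluster tested, 69, 137 and 126 with the lung score, atrial score or Xist in the fit, 19 without PBS replicates 3 and 9 and 2 when the high-atrial hearts were left out; with 1 heart left out it ran from 90 to 242. The share of called genes that fell was 68.1% as reported, 78.6% after median centring of the arrays and 58.3% after further quantile normalization. It was 36.1% with every transcript cluster tested, which includes clusters without a named gene. Of the other sphingolipid genes 5 were called with the filter at the median and 4 with the trend and robust options, and 0 without a filter, in the unmoderated model, with every cluster tested, with any of the 3 covariates, and when the lung or high-atrial hearts were left out; with 1 heart left out the count ran from 0 to 0. No paired analysis was possible because the groups share no replicate numbers.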
